A study of Mus musculus with 12 samples.

Results

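Hepatic stellate cells that had been cultured without hexokinase 2 were compared with freshly isolated, quiescent stellate cells. The comparison used 6 of the 12 libraries of the series, the 3 labelled KO and the 3 labelled QS, taken by the group named in their titles, and all 12081 listed genes. Every mouse liver carried Hk2 fl/fl, that is, both copies of the hexokinase 2 gene flanked by sites that Cre recombinase cuts. QS cells were untreated and unrecombined cells from density gradient isolation. KO cells had received an adenovirus encoding a Cre and eGFP fusion protein and were kept for 6 days in low-glucose medium with 10% fetal bovine serum. The 3 activated control libraries (ACT), from cells given an adenovirus with eGFP alone for the same 6 days, are used only as a reference, and the remaining 3 libraries, of Hk2-deleted cells given lactate, enter only the estimate of spread. Virus, Cre, plastic, serum and time all separate KO from QS and cannot be told apart in this comparison. The labels give neither the age nor the sex of the mice, and do not tell whether each library had its own animal or culture. The p-values below therefore rest on the spread from library to library, which may be technical only.

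In the healthy liver, stellate cells lie between hepatocytes and the sinusoidal endothelium, store vitamin A as retinyl esters and behave as pericytes. After injury, or when plated on plastic, they lose the vitamin A stores, assemble smooth muscle actin fibres, divide and deposit fibrillar collagen, a change called activation. Hexokinases trap glucose in the cell as glucose 6-phosphate, the entry to glycolysis, the pentose phosphate pathway and hexosamine synthesis. Hexokinase 1 and hexokinase 2 are separate enzymes encoded by separate genes.

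Expression is given in CPM, reads scaled to library size with a further factor per library. CPM values are not corrected for transcript length, so levels are compared between groups and never between genes. The listed genes stand on an estimated 4.35 to 10.1 M (megareads) per QS library and 5.85 to 11.6 M per KO library, and 3 reads correspond to 0.252 to 0.720 CPM in these 6 libraries. Of the 10 defining stellate markers all were measured in both groups, and 7 of them, among them Lrat, Reln and Rgs5, were lower in KO. Markers of other liver cells were present as well. The summed level of 26 hepatocyte markers was 3331 to 3380.3 CPM in QS and 709 to 754 CPM in KO, that of 24 macrophage and Kupffer cell markers was 7911 to 7992 and 754 to 776 CPM, and that of 22 endothelial markers was 19418 to 19878 and 9054 to 10079 CPM. No marker of these 3 lists was listed at 0 in all libraries of QS or of KO. In bulk RNA, fewer cells of a type and less RNA per cell cannot be told apart.

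Hk2 (chromosome 6, 82725025 to 82774454, minus strand of mm10) was low in every library that had received Cre. Its level was 73.3, 66.7 and 73.5 CPM in the 3 QS libraries and 10.7, 13.7 and 11.9 CPM in the 3 KO libraries, so the groups did not overlap. The KO mean stood at 17.0% of the QS mean (log2 fold change -2.46, SE 0.0776, limma adjusted p = 1.82e-12). With 3 against 3 libraries, the exact permutation test (two-sided) gave p = 0.1, the smallest it can give. The residual signal cannot be assigned, since the labels do not state which exons are removed. In ACT, Hk2 was 181, 182 and 181 CPM, above QS. Hk1 (chromosome 10, 62268855 to 62379908, minus strand), the widely expressed hexokinase, was 122, 113 and 119 CPM in QS and 221, 199 and 207 CPM in KO, a rise of 0.82 on the log2 scale (SE 0.0481, adjusted p = 1.66e-09). Its change from QS to ACT was 0.21, and the difference between both changes was 0.61 (adjusted p = 6.14e-08). Hk3, the hexokinase gene of myeloid cells, went from 96.8 ± 4.30 CPM to 2.58 ± 1.17 CPM (log2 fold change -4.82, adjusted p = 4.19e-12). The macrophage markers summed above fell in the same libraries, and their part in the value of Hk3 was not tested.

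Over all genes, 8825 of 12081 (73.0%) differed between KO and QS at a limma adjusted p under 0.05, the rule by which a gene is called higher or lower throughout. Of these, 4517 genes (37.4%) were higher in KO and 4308 (35.7%) were lower. A change of at least 2-fold was reached by 1718 genes (14.2%) that were higher and 1620 (13.4%) that were lower, and the KO and QS libraries did not overlap in 72.5% of genes. The median log2 fold change of all genes was 0.02. With libraries scaled to equal totals it became 0.12, and 58.0% of the called genes were higher in place of 51.2%. With median ratios it became -0.03, and 48.0% were higher (4229 genes, with 4585 lower), so which direction holds more genes depends on the scaling. For reference, ACT against the same 3 QS libraries gave 73.5% of genes called, 38.0% higher and 35.5% lower. Both changes share the QS libraries, so they are given side by side, and the direct contrast of KO with ACT, in which 62.4% of genes were called (36.0% higher in KO and 26.3% lower), is the test of their difference. All log2 fold changes were taken between values of log2(CPM + 1), and the added 1 shrinks the change of a gene that is low in 1 group.

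Genes of the matrix, of actin fibres and of secreted proteases made up most of the 10 largest rises. Mmp10, which encodes the matrix protease stromelysin 2, was 0.207, 0.480 and 0 CPM in QS and 374, 421 and 386 CPM in KO. Col12a1, a collagen that binds to the surface of collagen I fibrils, was 1.76, 0.720 and 0.418 CPM in QS and 568, 507 and 492 CPM in KO. In both, every KO library lay far above the QS libraries, and the QS values were so low that the log2 fold changes of 8.34 and 8.11 depend on the added 1. Tnc, the gene of the adhesion-modulating matrix protein tenascin C, was well measured in QS (21.1, 24.2 and 25.3 CPM) and reached 3709, 3562 and 3323 CPM in KO (7.17, SE 0.0558, adjusted p = 2.47e-18). Also among the 10 largest rises were Acta2, the gene of smooth muscle actin, Fbln2 (6.51), a fibulin of elastic fibres, the actin crosslinker gene Flnc (6.60), Ltbp2 (5.87), Serpinb9b (6.70) and S100a6 (5.85), a calcium-binding protein gene. Prl2c2, a prolactin-related gene of a family with near-identical copies, was listed at 0 in each QS library and reached 96.6, 104 and 103 CPM in KO, at least 183-fold higher when QS is set to 3 reads per library.

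The 10 largest falls were mostly in genes of macrophages, antigen presentation and the interferon response. Marco, the scavenger receptor of Kupffer cells, fell from 972, 908 and 913 CPM in QS to 1.43, 1.88 and 0.855 CPM in KO (-8.63, SE 0.128, adjusted p = 9.28e-16). Slfn4, an interferon-induced myeloid gene with close relatives in its cluster, was 339.9, 345 and 339 CPM in QS and listed at 0 in all KO libraries, at least 872-fold lower when KO is set to 3 reads per library. Il1rn, the gene of the interleukin 1 receptor antagonist, stood at 633 ± 11.6 CPM in QS and 2.94 ± 0.188 CPM in KO, and Cd5l, a secreted protein of Kupffer cells, at 1069.9 ± 25.4 and 8.36 ± 1.53 CPM. Rsad2, Ifi206, Cfb, Oas3, Ifi202b and Cd74 completed the 10, with log2 fold changes from -7.80 to -6.84. In the plot of all genes against their mean level, these named genes lie at the outer edges of the cloud, while Hk2 lies well inside them.

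**Figure D1:**
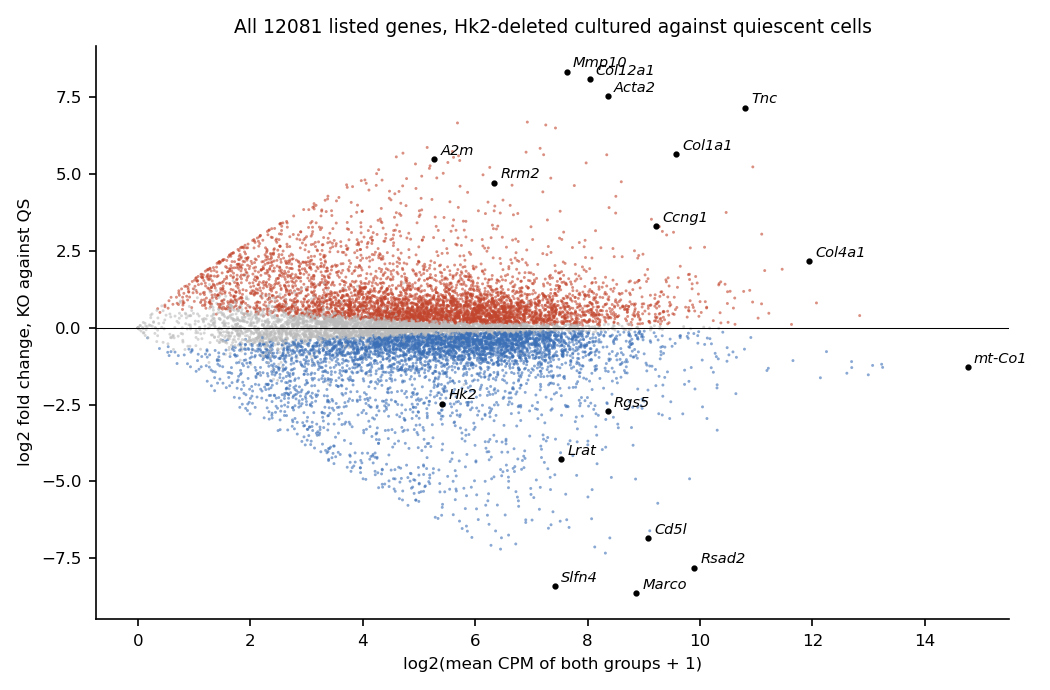
Log2 fold change of KO against QS (vertical axis) against the log2 mean CPM of both groups (horizontal axis) for 12081 genes, each a point, coloured red where called higher, blue where called lower and grey where not called. Acta2 at 7.54 and Marco at -8.63 stand near the upper and lower edges, and Hk2 is at -2.46.

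The pathway lists divided into a group that rose, a group that fell and a group whose members went both ways. The cell cycle, fibrillar matrix and contractile lists had the highest medians, and the interferon response, chemokine and MHC class I lists the lowest. They are described in turn by how many members were called in each direction, to be read against the 37.4% and 35.7% of all genes.

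**Figure D2:**
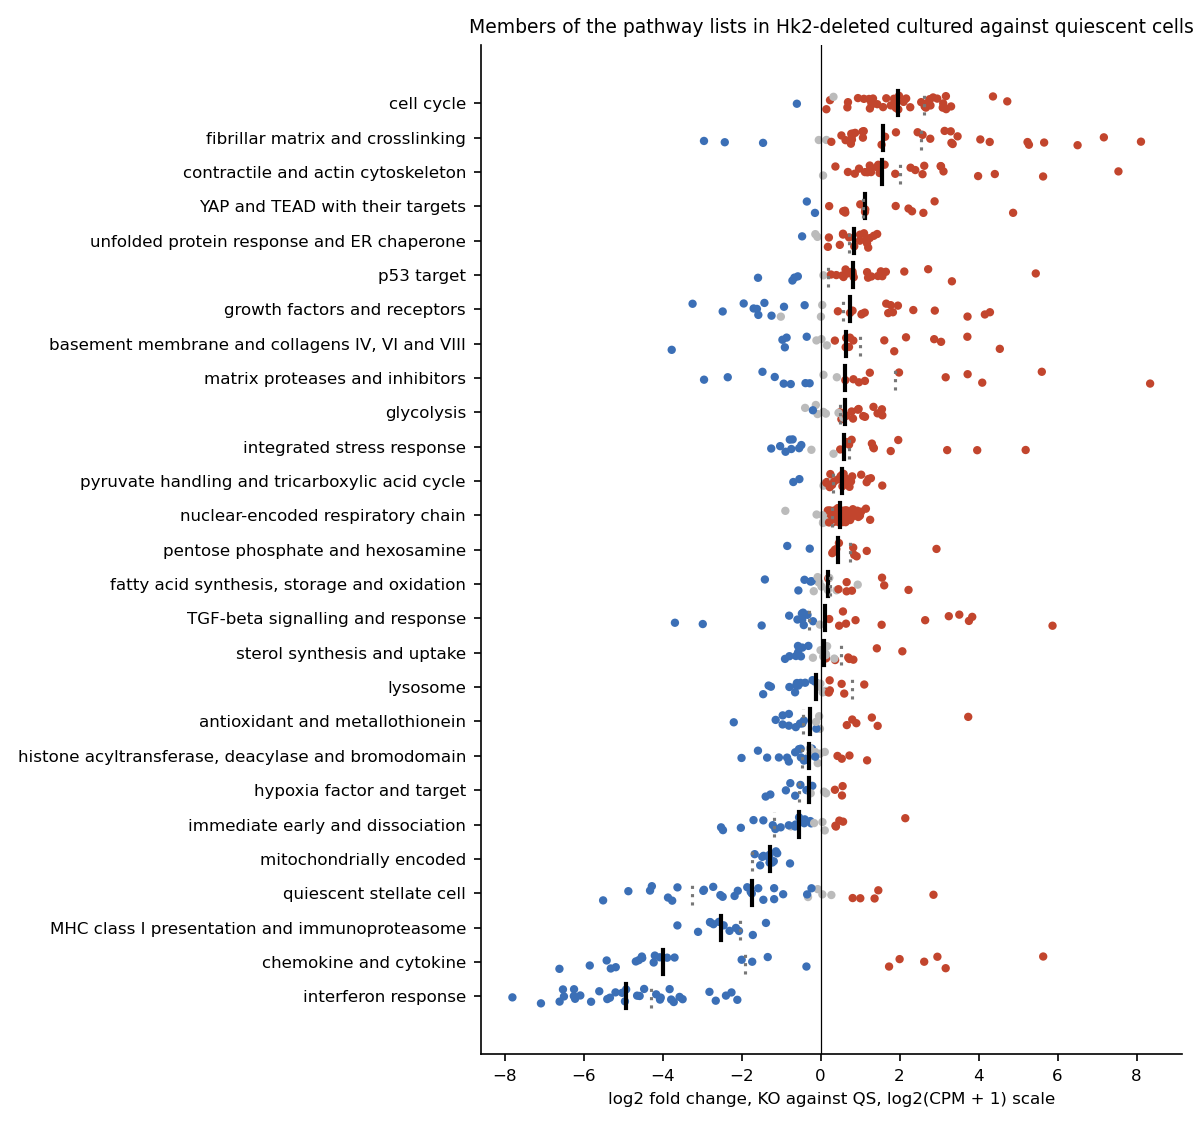
Log2 fold change of KO against QS for each member (point) of 27 pathway lists, ordered by median, with members called higher in red, called lower in blue and not called in grey. The thick black bar is the list's median in KO against QS, the dotted grey bar its median in ACT against QS, and the thin vertical line the median of all genes. The interferon list lies entirely below 0, from -7.80 to -2.11, and the contractile list entirely above it.

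Genes of the contractile apparatus rose in culture without hexokinase 2. Of 26 listed genes of contraction and the actin cytoskeleton, 25 rose and none fell, with a median log2 fold change of 1.56, and Smtn (0.06) was not called. Acta2 (chromosome 19, 34241090 to 34255590, minus strand), the standard marker of the myofibroblast, was 3.82, 2.64 and 1.46 CPM in QS and 675, 665 and 620.1 CPM in KO, a log2 fold change of 7.54 (SE 0.159, adjusted p = 2.74e-14). All KO libraries lay far above the QS libraries, yet far under the ACT values of 2624, 2711 and 2633 CPM. The ACT change was 9.56, and the difference between both changes was -2.02 (adjusted p = 6.37e-08). Tagln, the actin-binding transgelin, was 12.9, 9.86 and 12.9 CPM in QS, 630.3, 632 and 643 CPM in KO and 1294, 1281 and 1282 CPM in ACT. Tpm2, a tropomyosin, was 4.56, 3.75 and 4.43 CPM in QS, 109, 113 and 109 CPM in KO and 357, 358 and 360.1 CPM in ACT. In all of these genes the 3 groups did not overlap and KO lay between QS and ACT. Myl9, the regulatory light chain of smooth muscle myosin, showed the same order, with 10.7 ± 0.156, 185 ± 6.91 and 339.8 ± 9.20 CPM.

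Some members of the list had far less signal in KO than in ACT. Actg2, enteric smooth muscle actin, stood at 0 in QS, at 1.61, 2.96 and 0 CPM in KO and at 73.8, 70.1 and 76.3 CPM in ACT. Its call in KO against QS (adjusted p = 0.0131) was lost without KO library 2 (adjusted p = 0.0709). Cnn1, the smooth muscle calponin, reached 8.61, 10.9 and 8.91 CPM in KO against 171, 183 and 179 CPM in ACT, while every QS library was under 0.5 CPM, and it was called higher in KO than in QS (3.05, adjusted p = 1.02e-10). Over the whole list, 6 members were higher and 15 lower in KO than in ACT, and the ACT median was 2.01.

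The promoters of this list were searched for the CArG box, the motif bound by serum response factor. Only exact matches to CCWWWWWWGG, with W for A or T, were counted. Boxes that depart from this pattern were not searched for. RefSeq windows (GRCm38.p6, 250 bases before to 50 after the start) were at hand for 23 of the 26 genes. On either strand an exact match occurred in 4 of them (17.4%), and in 1.54% of the 9634 listed genes with a window. Acta2 (7.54) and Tpm2 (4.41), the largest rises among members with a window, held no exact match there, nor did Cnn1 (3.05). Whether they hold an imperfect box was not tested. Of the members that held an exact match, Myl9 rose by 3.99, Cnn2 by 1.89 and Vcl by 1.26. The 250 bases before the start are shown for the 3 members with the largest change that hold a match there, 5′ to 3′ on the gene's strand, with the match in capitals. Myl9 lies at chr2:156775214-156775463, plus strand, Cnn2 at chr10:79988350-79988599, plus strand and Vcl at chr14:20929148-20929397, plus strand.
Myl9: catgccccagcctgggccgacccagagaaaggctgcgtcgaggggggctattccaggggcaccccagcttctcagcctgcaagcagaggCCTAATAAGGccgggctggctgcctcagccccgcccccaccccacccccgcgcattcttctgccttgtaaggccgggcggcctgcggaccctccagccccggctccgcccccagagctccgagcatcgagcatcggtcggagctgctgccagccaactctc
Cnn2: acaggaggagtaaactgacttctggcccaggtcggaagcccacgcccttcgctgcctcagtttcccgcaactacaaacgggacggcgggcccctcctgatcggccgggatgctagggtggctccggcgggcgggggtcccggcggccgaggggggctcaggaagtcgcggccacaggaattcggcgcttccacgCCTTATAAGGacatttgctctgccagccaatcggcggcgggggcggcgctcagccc
Vcl: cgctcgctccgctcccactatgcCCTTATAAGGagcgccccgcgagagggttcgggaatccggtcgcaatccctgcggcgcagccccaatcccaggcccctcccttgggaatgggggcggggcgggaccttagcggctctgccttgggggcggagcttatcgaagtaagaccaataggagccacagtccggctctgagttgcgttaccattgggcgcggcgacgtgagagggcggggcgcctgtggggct
The match begins 161 bases before the start in Myl9, 56 in Cnn2 and 227 in Vcl. Cnn2, a calponin of non-muscle cells, went from 102, 105 and 103 CPM in QS to 382, 397 and 379 CPM in KO, and Vcl, which links actin to adhesion sites, from 196, 199 and 205 CPM to 484, 475 and 481 CPM. Both rose in every KO library beyond every QS library. A match is a description of the sequence, and occupancy was not measured.

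Fibrillar matrix genes rose as a group, although the 2 measured chains of collagen I, Col1a1 and Col1a2, rose to unlike degrees. Of 36 listed genes of fibrillar matrix and its crosslinking, 31 rose and 3 fell, with a median of 1.59, and 22 rose at least 2-fold. Col1a1 (chromosome 11, 94936224 to 94953042, plus strand), the alpha 1 chain of collagen I, was 29.0, 29.3 and 27.6 CPM in QS and 1573, 1481 and 1440.1 CPM in KO (5.66, SE 0.0409, adjusted p = 1.91e-18). Col1a2 (chromosome 6, 4504814 to 4541544, plus strand), the alpha 2 chain of the same molecule, was 124, 109.5 and 114 CPM in QS and 209.8, 217 and 211 CPM in KO (0.88, SE 0.0387, adjusted p = 7.53e-11). Both rose without overlap, by very different amounts. In ACT they were 5341 ± 51.3 and 3305 ± 18.6 CPM, changes of 7.49 and 4.83 from QS. The difference between the KO and ACT changes was -1.83 for Col1a1 and -3.95 for Col1a2 (adjusted p = 5.59e-14 and 1.11e-17). Col3a1 (chromosome 1, 45311538 to 45349706, plus strand), the collagen III chain, resembled Col1a2, with 278, 258 and 253 CPM in QS and 424, 397 and 403 CPM in KO (0.63) against 1572 ± 13.2 CPM in ACT.

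Matrix genes differed in where KO stood against ACT. Tnc was 3709, 3562 and 3323 CPM in KO and 1487, 1471 and 1482 CPM in ACT, a difference of 1.25 (adjusted p = 1.12e-10). For Col12a1, at 522 ± 40.3 CPM in KO and 584 ± 4.51 CPM in ACT, every KO library lay below every ACT library, but the difference missed the threshold (-0.16, adjusted p = 0.407). Thbs1, the gene of the TGF-beta activating thrombospondin 1, was 3829.6 ± 143 CPM in KO against 101 ± 7.51 CPM in QS and 4700.4 ± 22.0 CPM in ACT. Fn1, fibronectin, was 253, 239.9 and 241 CPM in QS, 771, 732 and 650.1 CPM in KO and 11091, 11474 and 11446 CPM in ACT. Lox, the enzyme that crosslinks collagen and elastin, was 70.6 ± 5.38 CPM in KO and 517 ± 18.0 CPM in ACT, with QS libraries between 0.620 and 1.25 CPM. The members that fell were the small leucine-rich proteoglycans Dcn (2039, 1971 and 1920.2 CPM in QS, 266, 236 and 263 CPM in KO), Lum (-2.42) and Fmod (-1.46). The summed macrophage markers were 754 to 776 CPM in KO and 14844 to 15211 CPM in ACT, where the lysozyme gene Lyz2 made up most of the sum. Macrophages also express Fn1, and their part in its value was not tested.

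Genes of the basement membrane, the thin sheet under epithelia and endothelia, rose in part. Of 21 genes of basement membrane and of collagens IV, VI and VIII, 13 rose and 5 fell, with a median of 0.65. Col4a1 (chromosome 8, 11198423 to 11312826, minus strand) was 1541, 1404 and 1377 CPM in QS, 6793, 6479.7 and 6098 CPM in KO and 2847, 2907 and 2927 CPM in ACT. Col4a2, its partner chain transcribed from the opposite strand of the same locus, was 1059.6, 935 and 944 CPM in QS, 3829, 3505 and 3379 CPM in KO and 1500.2, 1529 and 1497 CPM in ACT. Nid1, which links laminin to collagen IV, was 459, 479 and 476 CPM in QS, 4010.3, 3897 and 3835 CPM in KO and 1802, 1807 and 1828 CPM in ACT. For these 3 genes KO was the highest of the 3 groups, with differences from ACT of 1.16, 1.24 and 1.11 (limma adjusted p at most 5.10e-11). Col4a5 (58.2 ± 5.92 CPM in KO, 299 ± 1.84 in ACT) and Col8a1 (45.7 ± 2.98 and 169 ± 8.14) stayed below ACT instead, from 1.54 ± 0.226 and 2.65 ± 0.981 CPM in QS. Sparcl1, an antiadhesive glycoprotein gene, fell from 65.1 ± 2.62 to 3.87 ± 0.509 CPM. The summed endothelial markers were 9054 to 10079 CPM in KO and 733 to 751 CPM in ACT, and endothelial cells also make collagen IV. Their part in the values of these genes was not tested.

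Among proteases and their inhibitors 11 of 21 genes rose and 8 fell (median 0.63, against 1.90 in ACT). Timp1, the inhibitor of metalloproteinases, rose from 1.34, 1.44 and 0.627 CPM in QS to 109, 98.7 and 96.4 CPM in KO (5.60, adjusted p = 2.33e-14), less than the 237 ± 4.27 CPM of ACT. The stromelysins went past ACT. Mmp3 was 6.51, 8.40 and 7.10 CPM in QS, 136, 145 and 141 CPM in KO and 37.0, 32.6 and 33.6 CPM in ACT, and Mmp10 was 394 ± 24.1 CPM in KO and 133 ± 0.929 CPM in ACT. Adam12, a membrane protease of activated mesenchyme, rose from 14.3 ± 1.77 to 200.3 ± 9.19 CPM.

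**Figure D3:**
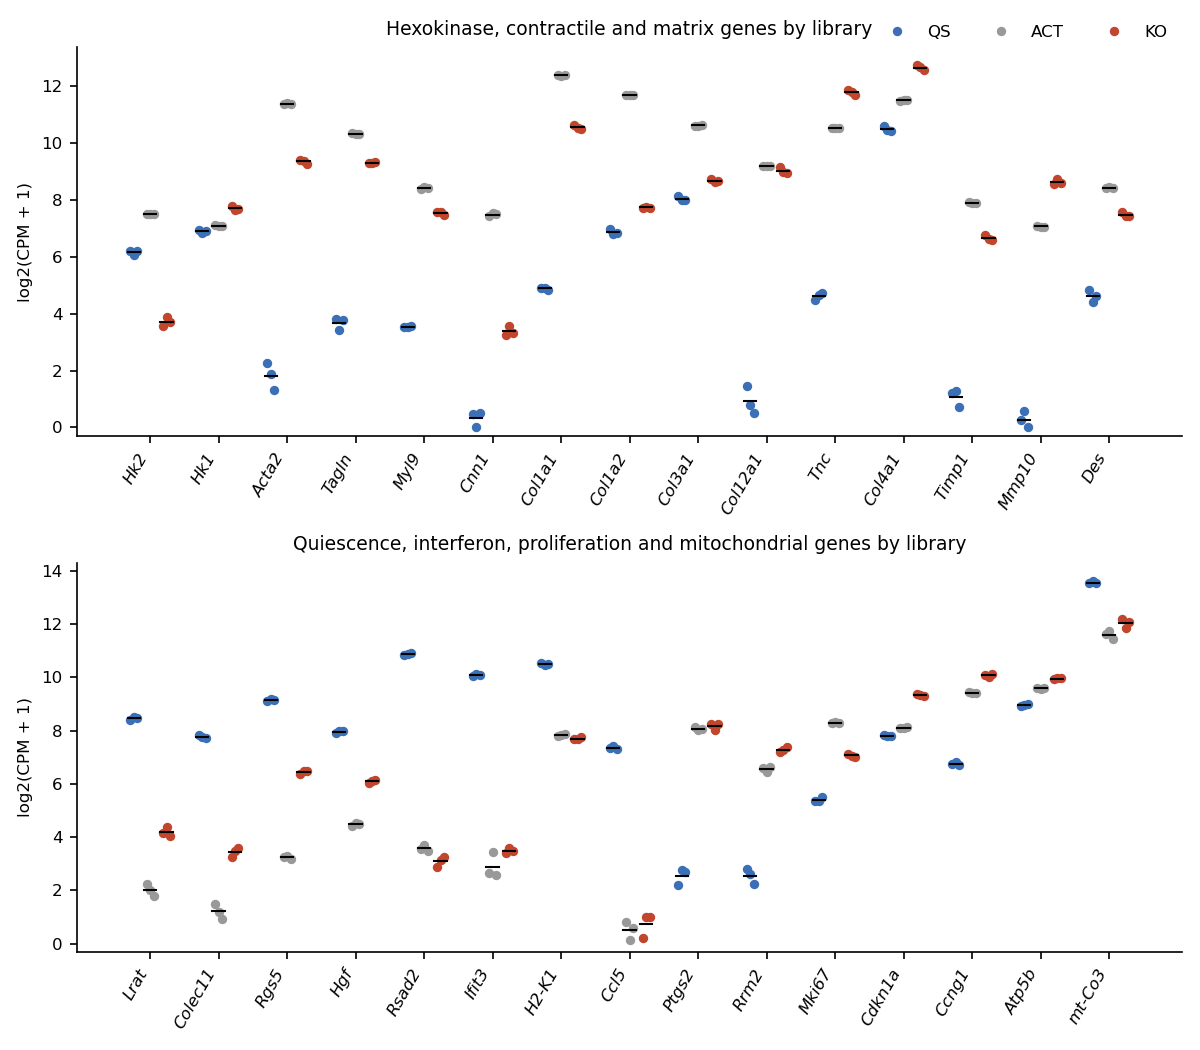
Level of 30 genes as log2(CPM + 1) in each library of QS (blue), ACT (grey) and KO (red), with 3 points per group and a bar at their mean. Acta2, Tagln and Col1a1 lie between QS and ACT in KO, Tnc, Mmp10 and Col4a1 lie above ACT, and the interferon genes Rsad2 and Ifit3 are low in both cultured groups.

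TGF-beta is the main fibrogenic ligand of stellate cells, held latent by binding proteins and read through a pair of receptor kinases and SMAD proteins. The list of this pathway went both ways, with 12 of 24 members higher and 11 lower (median 0.10). Of the ligands, Tgfb1 was 184, 172 and 169.7 CPM in QS and 152, 144 and 124 CPM in KO (-0.33, adjusted p = 0.00156), and Tgfb3 rose from 3.31, 4.32 and 2.51 CPM to 63.5, 62.5 and 56.7 CPM (3.84, adjusted p = 7.64e-13). Of the latent binding proteins, Ltbp2 was 0.245, 0.347 and 0 CPM in QS and 69.1, 70.9 and 66.0 CPM in KO, and Ltbp4 fell from 476 ± 57.4 to 36.3 ± 7.06 CPM. The receptor gene Tgfbr1 was 79.5, 80.5 and 84.7 CPM in QS, 31.2, 26.5 and 27.5 CPM in KO and 143, 135 and 137 CPM in ACT. Thus Tgfbr1 fell in KO (-1.49) and rose in ACT (0.75), a difference of -2.25 (adjusted p = 2.63e-12). Eng, the endoglin co-receptor of endothelial and stellate cells, went the other way, with 1206 ± 79.4 CPM in QS, 1887 ± 137 in KO and 209 ± 8.31 in ACT. The summed endothelial markers were 19418 to 19878 CPM in QS, 9054 to 10079 in KO and 733 to 751 in ACT. The part of endothelial cells in the value of Eng was not tested.

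YAP and TEAD proteins carry the signal of a stiff substrate to the nucleus, and 13 of 15 listed factors and targets rose while 2 fell (median 1.13). Ankrd1 rose from 9.30, 10.1 and 9.82 CPM to 311, 315 and 315 CPM (4.87, SE 0.0373, adjusted p = 2.47e-18). Ccn2, connective tissue growth factor, rose from 244, 247 and 278 CPM to 1522, 1587 and 1574 CPM, and Ccn1 from 130.4 ± 6.55 to 653 ± 12.9 CPM. KO exceeded ACT for Ccn2 (0.46) and Ccn1 (0.64) and stayed under it for Ankrd1 (-0.46).

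Of 29 growth factors and receptors 16 rose and 10 fell (median 0.75). Fgf2, basic fibroblast growth factor, rose from 7.66, 10.3 and 7.90 CPM to 167, 164 and 178 CPM and did not differ between KO and ACT beyond the threshold (-0.05, adjusted p = 0.585). Bdnf was listed at 0 in the QS libraries and at 19.5, 22.7 and 14.4 CPM in KO, at least 34.1-fold higher when QS is set to 3 reads per library. Ereg, an EGF receptor ligand, was 9.31 ± 1.68 CPM in QS and 134 ± 11.0 CPM in KO. Pdgfb, the ligand of the stellate cell mitogen receptor Pdgfrb, was 91.9 ± 8.06 CPM in KO against 17.4 ± 3.28 CPM in QS and 26.1 ± 1.33 CPM in ACT. The summed endothelial markers were 19418 to 19878 CPM in QS, 9054 to 10079 CPM in KO and 733 to 751 CPM in ACT. Their part in the value of Pdgfb was not tested. Igfbp5 fell from 45.7 ± 1.76 to 4.20 ± 2.16 CPM.

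Genes of the quiescent stellate cell fell, although less far than in ACT. Of 33 listed genes 24 fell and 5 rose, with a median of -1.74 in KO and -3.25 in ACT, and set against ACT directly, 27 had a higher level in KO and 4 a lower one. The same held for markers of other liver cells, with 24 of 26 hepatocyte and 21 of 22 endothelial markers higher in KO than in ACT. The higher level is therefore not particular to stellate genes, and what set it was not tested. Lrat (chromosome 3, 82892579 to 82903973, minus strand), the enzyme that esterifies retinol for storage, was 340.3, 363 and 352 CPM in QS, 16.6, 19.9 and 15.5 CPM in KO and 3.75, 3.03 and 2.48 CPM in ACT. The KO mean of Lrat was 4.94% of the QS mean (-4.27, SE 0.13, adjusted p = 1.28e-12). Rgs5 (chromosome 1, 169655501 to 169695813, plus strand), a pericyte regulator of G protein signalling, was 555, 583 and 571 CPM in QS, 80.8, 88.0 and 88.7 CPM in KO and 8.63, 8.67 and 8.09 CPM in ACT. Its KO level was 15.1% of QS. The collectin genes fell likewise, Colec11 from 217 ± 11.4 to 10.0 ± 1.27 CPM and Colec10 from 503 ± 11.5 to 10.1 ± 0.288 CPM. Hgf, the hepatocyte growth factor that stellate cells secrete, fell from 239.7, 251 and 251 CPM to 63.8, 68.9 and 70.2 CPM, and Reln, reelin, from 1363, 1384 and 1377 CPM to 453, 393 and 389 CPM. Steap4, a metalloreductase gene, fell further in KO (9.73 ± 0.862 CPM) than in ACT (18.8 ± 1.99 CPM), from 311 ± 7.56 CPM. In every gene of this paragraph the KO libraries lay apart from both QS and ACT.

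Stellate markers that accompany activation rose. Des, the intermediate filament desmin, was 27.3, 20.2 and 23.8 CPM in QS and 189, 171 and 173 CPM in KO (2.86), and Pdgfrb was 75.0, 76.3 and 75.8 CPM in QS, 139, 132 and 130.2 CPM in KO and 95.7 ± 1.77 CPM in ACT. For Pdgfrb the KO level was the highest of the 3 groups (0.48 against ACT, adjusted p = 1.57e-07).

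The interferon response fell without exception. All 33 listed interferon response genes were lower in KO, with a median of -4.92, and the median KO level was 3.12% of QS. Rsad2 (chromosome 12, 26442746 to 26456452, minus strand), the antiviral enzyme viperin, was 1840.2, 1894 and 1950.0 CPM in QS and 6.39, 7.74 and 8.49 CPM in KO (-7.80, SE 0.109, adjusted p = 4.96e-16). Ifit3 (chromosome 19, 34583531 to 34588731, plus strand), which has a near-identical copy in Ifit3b and is therefore uncertain on its own, was 1059, 1115 and 1098 CPM in QS and 9.52, 10.9 and 10.2 CPM in KO. Oas3, an antiviral 2′-5′ oligoadenylate synthetase with related genes in its cluster, was 159, 149 and 153 CPM in QS and at or under 0.288 CPM in KO. Isg15, a ubiquitin-like modifier, was 151, 145 and 143 CPM in QS and 3.35, 2.14 and 2.12 CPM in KO. The ACT libraries were also low, with 10.9 ± 0.990 CPM for Rsad2 and 6.68 ± 2.69 CPM for Ifit3, and the list's median there was -4.29. KO and ACT differed in both directions, 8 genes higher in KO and 15 lower. Oas3 was 7.31 ± 0.173 CPM in ACT, above all KO libraries (-2.86, adjusted p = 1.07e-10).

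Most promoters of the interferon list held the same short motif. The letters GAAA, any 2 bases and again GAAA, the core of the interferon-stimulated response element, were searched on both strands and occurred in 15 of 24 members with a RefSeq window (62.5%), against 3.95% of all listed genes with a window and 3.44% of all 32851 mouse windows. The 250 bases before the start are shown for the 3 members with the largest fall that hold it, with matches in capitals. Where the capitals begin with T, the match is on the other strand. Rsad2 lies at chr12:26456453-26456702, minus strand, Oas3 at chr5:120777660-120777909, minus strand and Ifit3 at chr19:34583279-34583528, plus strand (GRCm38.p6).
Rsad2: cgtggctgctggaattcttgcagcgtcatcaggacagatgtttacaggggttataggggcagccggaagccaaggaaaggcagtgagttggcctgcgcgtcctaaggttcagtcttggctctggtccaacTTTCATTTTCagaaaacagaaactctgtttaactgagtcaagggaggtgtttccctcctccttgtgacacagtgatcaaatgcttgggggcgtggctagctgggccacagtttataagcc
Oas3: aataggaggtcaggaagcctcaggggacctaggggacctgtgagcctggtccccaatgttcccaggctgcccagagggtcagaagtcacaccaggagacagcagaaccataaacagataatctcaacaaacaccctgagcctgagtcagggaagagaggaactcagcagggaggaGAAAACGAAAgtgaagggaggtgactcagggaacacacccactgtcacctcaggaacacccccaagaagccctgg
Ifit3: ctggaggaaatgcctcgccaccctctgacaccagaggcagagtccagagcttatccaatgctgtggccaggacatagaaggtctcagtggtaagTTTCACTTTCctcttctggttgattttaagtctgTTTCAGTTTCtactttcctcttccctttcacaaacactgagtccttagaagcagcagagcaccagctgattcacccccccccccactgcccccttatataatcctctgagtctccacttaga
Rsad2 and Oas3 hold 1 match each, which begins 120 and 75 bases before the start, and Ifit3 holds 2. The capitals mark letters that fit the motif and no measured binding.

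Presentation by MHC class I followed the interferon genes. All 12 listed members fell (median -2.51), with H2-K1, a class I heavy chain, at 1474, 1419 and 1451 CPM in QS and 203, 206 and 213 CPM in KO, and H2-T23 at 276, 268 and 278 CPM in QS and 21.3 ± 0.300 CPM in KO. Nlrc5, the transactivator of class I genes, fell from 112 ± 13.4 to 12.1 ± 1.51 CPM and Psmb9, an immunoproteasome subunit, from 28.2 ± 1.80 to 3.27 ± 0.773 CPM. H2 genes have close copies, and their single values are uncertain.

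Among chemokines and cytokines 18 of 24 fell and 6 rose (median -3.98). Ccl5, which attracts T cells, was 161, 169 and 157 CPM in QS and 0.168, 0.989 and 0.997 CPM in KO, and Cxcl10, an interferon-induced chemokine, 384, 379.8 and 379.8 CPM in QS and 6.97, 8.90 and 8.12 CPM in KO. Cxcl13 fell from 82.8 ± 5.47 CPM to 0.498 ± 0.439 CPM. The 6 members that rose were Csf1 (1.73), Il11 (2.00), Cx3cl1 (2.62), Cxcl14 (2.96), Lif (3.17) and Ptgs2 (5.64), of which Ptgs2 encodes the inducible cyclooxygenase. Ptgs2 was 3.62, 5.76 and 5.43 CPM in QS, 306, 261 and 306 CPM in KO and 278, 262 and 264 CPM in ACT. Il11, a fibrogenic cytokine of the interleukin 6 family, was 3.49, 3.17 and 4.09 CPM in QS, 17.5 ± 3.30 CPM in KO and 0.617, 1.05 and 0.587 CPM in ACT, so it rose in KO and fell in ACT (3.39 between them, adjusted p = 7.35e-10). Lif, of the same family, was 3.90, 3.04 and 4.18 CPM in QS, 43.6, 38.0 and 41.9 CPM in KO and 14.9, 14.0 and 14.8 CPM in ACT. Macrophages express many genes of these 3 lists. The summed macrophage markers fell from QS to KO as given above and were 14844 to 15211 CPM in ACT. Lyz2 made up most of that ACT sum, and without Lyz2 the sum was lower in ACT than in QS. In ACT, 33 of 33 interferon genes, 12 of 12 class I genes and 17 of 24 chemokines and cytokines were lower than in QS, and 6 of the latter were higher. The part of macrophages in these values was not tested.

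Cell cycle genes rose almost throughout. Of 41 listed genes 39 rose and only Cenpa fell (-0.60), with a median of 1.97 for the list. Cenpa was not called with libraries scaled to equal totals, nor without QS library 1 or 2 or KO library 1 or 2. Rrm2, the ribonucleotide reductase subunit of S phase, was 5.99, 5.07 and 3.76 CPM in QS and 146, 154 and 164 CPM in KO (4.73, SE 0.108, adjusted p = 5.89e-14), and Ccne1, cyclin E1, 1.65, 0.960 and 1.04 CPM in QS and 45.9, 44.9 and 42.1 CPM in KO. Both were higher in KO than in ACT (93.4 ± 6.15 and 23.7 ± 1.55 CPM). Mki67, the proliferation antigen, behaved otherwise, with 39.6, 40.1 and 44.5 CPM in QS, 139.7, 132 and 127 CPM in KO and 311, 316 and 315 CPM in ACT. Set against ACT directly, 27 of the 41 genes had a lower level in KO and 3 a higher one. Cenpe, a motor protein of mitosis, rose from 6.30 ± 0.720 to 70.9 ± 3.58 CPM, and Kif20a, another, by 3.18 on the log2 scale.

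The letters TTTCCCGC or TTTGGCGC, forms of the E2F motif, were found on either strand in 5 of 33 cell cycle genes with a window (15.2%) and in 3.40% of all listed genes with a window.

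Targets of the tumour suppressor p53, which halts the cycle and starts repair after damage, rose with the cycle genes. Of 26 members 21 rose and 4 fell (median 0.81, against 0.19 in ACT), and 21 were higher in KO than in ACT with 1 lower. Cdkn1a (chromosome 17, 29090976 to 29100727, plus strand), the cyclin kinase inhibitor p21, was 225, 223 and 219.6 CPM in QS, 659.9, 643 and 629 CPM in KO and 275, 275 and 279 CPM in ACT (1.53 from QS, 1.22 from ACT, adjusted p = 5.25e-14 and 7.86e-13). Ccng1, cyclin G1, was 106, 112 and 103 CPM in QS, 1085, 1029 and 1132 CPM in KO and 700.3, 685 and 683 CPM in ACT. In both genes KO was highest and no 2 groups overlapped. Ak1, an adenylate kinase, rose from 1.41 ± 0.564 to 102 ± 3.51 CPM, Phlda3 from 12.4 ± 2.51 to 86.4 ± 2.94 CPM and Zmat3 from 43.8 ± 1.14 to 194 ± 1.64 CPM. Mdm2, which degrades p53, rose from 76.6 ± 7.48 to 138 ± 11.6 CPM and was 135 ± 8.86 CPM in ACT (difference 0.03, adjusted p = 0.771). Sesn1 fell, from 47.2, 53.8 and 52.8 CPM in QS to 15.9, 15.7 and 17.8 CPM in KO, and was 62.6, 71.9 and 61.6 CPM in ACT.

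Glycolytic genes rose in KO although Hk2 was low. Of 22 listed members, which do not include Hk2, 14 rose, 1 fell and 7 were not called (median 0.62, 0.49 in ACT). Eno1, enolase, was 357, 315 and 347 CPM in QS and 1006, 1035 and 974 CPM in KO (1.56, SE 0.0419, adjusted p = 3.29e-13), and Pgam1, phosphoglycerate mutase, 177, 176 and 179 CPM in QS and 502, 545 and 519.5 CPM in KO. Gapdh went from 697 ± 30.9 to 1897 ± 90.6 CPM and Pfkp, a phosphofructokinase, from 26.7 ± 6.03 to 67.9 ± 3.17 CPM. Ldha, which turns pyruvate into lactate, was 278, 288 and 268 CPM in QS, 582, 586 and 596 CPM in KO and 639.6, 632 and 651 CPM in ACT. Slc16a3, the lactate exporter MCT4, was 14.7, 12.5 and 14.8 CPM in QS and 15.4, 16.6 and 14.2 CPM in KO (0.13, adjusted p = 0.174), while ACT had 34.9, 35.7 and 36.7 CPM. The QS and KO libraries of Slc16a3 overlapped, and it was called higher in KO only when the libraries were scaled to equal totals (0.24, adjusted p = 0.0216) or quantile-normalized (0.21, adjusted p = 0.0367). The difference between KO and ACT was -1.16 (adjusted p = 3.32e-08).

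Routes that branch from glycolysis rose as well. Of 12 pentose phosphate and hexosamine genes 10 rose and 2 fell (median 0.43, 0.75 in ACT), led by Gfpt2, a rate-limiting enzyme of hexosamine synthesis, from 17.1 ± 1.74 to 137 ± 3.69 CPM. Phgdh, the first enzyme of serine synthesis, was 0.826, 1.20 and 0.810 CPM in QS and 69.6, 72.0 and 68.1 CPM in KO. Psat1, the next enzyme, rose from 9.43 ± 4.14 to 152 ± 9.94 CPM. They belong to the integrated stress response list, of which 12 of 22 members rose and 8 fell (median 0.58, 0.72 in ACT). The members that fell included the stress factors Atf3 (-1.25), Atf4 (-0.71) and Ddit3 (-0.54). These 3 transcription factors fell while the genes of serine synthesis rose. Aldh1l2 and Psph, of mitochondrial folate metabolism and serine synthesis, were 23.2 ± 2.56 and 23.1 ± 2.50 CPM in KO against 1.66 ± 0.650 and 5.17 ± 0.623 CPM in QS.

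Nuclear and mitochondrial genes of respiration moved in opposite directions. Of 28 genes of pyruvate handling and the tricarboxylic acid cycle 22 rose and 2 fell (median 0.53), with citrate synthase (Cs) at 148 ± 2.64 CPM in QS and 334 ± 14.2 CPM in KO, and pyruvate carboxylase (Pcx) at 10.5 ± 1.40 and 32.8 ± 2.19 CPM against 12.9 ± 2.12 CPM in ACT. Of 58 nuclear-encoded subunits of the respiratory chain 48 rose and none fell, or 1 without KO library 1 or 2 (median 0.49, 0.30 in ACT). Atp5b, the catalytic subunit of ATP synthase, was 490.3, 493 and 509 CPM in QS and 978, 1001 and 1001 CPM in KO (1.00, SE 0.0293, adjusted p = 8.44e-13), and Ndufb6, of complex I, 19.9, 23.8 and 22.8 CPM in QS and 51.6, 50.2 and 61.2 CPM in KO. The 13 genes encoded in mitochondrial DNA all fell (median -1.29). mt-Co3, a subunit of cytochrome oxidase, was 11826, 12611 and 11912 CPM in QS and 4629.7, 3691 and 4328 CPM in KO, and mt-Nd2, of complex I, 9733, 9041 and 8884 CPM in QS and 3586, 3070.0 and 3297 CPM in KO. Together these 13 genes took 12.3 to 12.4% of the listed CPM in QS, 5.34 to 5.79% in KO and 3.70 to 4.22% in ACT. Of the 13, 11 were higher in KO than in ACT. The share of mitochondrial transcripts also moves with cell damage and with cell type, and what set it here was not tested.

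Chaperones of the endoplasmic reticulum, where secreted proteins fold, rose too: of 19 listed genes 16 rose and 1 fell (median 0.85, 0.71 in ACT). Calr, calreticulin, went from 502 ± 24.9 to 1357 ± 55.4 CPM, and the disulfide isomerases Pdia6 and Pdia4 from 139 ± 4.01 and 135 ± 6.07 to 355 ± 13.5 and 313 ± 12.9 CPM. Genes of hypoxia fell in 8 of 14 cases and rose in 3 (median -0.30, -0.56 in ACT), or in 5 without QS library 3 or with libraries scaled to equal totals. Hif1a, the oxygen-regulated factor itself, was 566, 584 and 598 CPM in QS and 222, 208 and 236 CPM in KO, and Ndrg1, a target, 222 ± 7.37 and 91.2 ± 3.21 CPM. Immediate early and dissociation genes, many of which respond quickly to handling of tissue, fell in 16 of 25 cases and rose in 5 (median -0.54). In ACT 22 of them fell (median -1.19). Fos went from 89.5 ± 4.83 to 15.5 ± 3.18 CPM and Klf2, a flow-regulated factor also of endothelium, from 118 ± 4.88 to 19.8 ± 1.00 CPM, and the small heat shock protein Hspb1 rose from 11.0 ± 2.76 to 51.1 ± 0.880 CPM.

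Lipid, redox, lysosomal and chromatin lists went both ways. Of 22 sterol genes 7 rose and 8 fell (median 0.10), a balance that became 10 and 7 with libraries scaled to equal totals. Of 22 fatty acid genes 8 rose and 5 fell (median 0.19), with the elongase Elovl6 at 7.88 ± 0.844 and 40.5 ± 2.79 CPM, fatty acid synthase (Fasn) at 66.4 ± 7.38 and 205 ± 17.8 CPM and the lipase Mgll falling from 237 ± 5.56 to 88.7 ± 2.08 CPM. Of 20 antioxidant genes 11 fell and 6 rose (median -0.27). Nqo1, a quinone reductase and target of NRF2, was 70.6, 67.4 and 67.7 CPM in QS, 179, 191 and 196 CPM in KO and 81.7, 85.0 and 85.0 CPM in ACT, and Gpx3, an extracellular glutathione peroxidase, 11.4, 161 and 67.0 CPM on average in the same order. Hmox1, a haem oxygenase also high in Kupffer cells, fell from 2119 ± 73.6 to 1090.2 ± 40.2 CPM, and mitochondrial superoxide dismutase (Sod2) from 121 ± 5.24 to 25.7 ± 1.75 CPM.

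Of 24 lysosomal genes 12 fell and 7 rose (median -0.10), or 10 and 10 with libraries scaled to equal totals. In ACT 21 rose (median 0.80), and 23 of the 24 were lower in KO than in ACT. Ctsb, the protease cathepsin B, was 3337, 3356 and 3492 CPM in QS, 1353, 1382 and 1356 CPM in KO and 5783, 5971 and 5952 CPM in ACT. The summed macrophage markers were also highest in ACT and lowest in KO, but Lyz2 made up most of the ACT sum. Without Lyz2 the sum was lower in ACT than in QS, with KO still lowest. Of the 24 macrophage markers, 11 were higher and 9 lower in ACT than in QS. Their part was not tested. Among 28 genes of histone acyltransferases, deacylases and bromodomain proteins, 16 fell and 4 rose (median -0.29). Ep300, the acetyltransferase p300, was 194, 186 and 174 CPM in QS and 116, 105 and 96.0 CPM in KO (-0.80, adjusted p = 3.17e-08), and Kat6a 249, 242 and 258 CPM in QS and 91.5, 77.0 and 79.6 CPM in KO. Both were near their ACT means of 120.4 and 93.6 CPM. Hdac6, the cytoplasmic tubulin deacetylase, rose from 8.43 ± 1.65 to 20.2 ± 1.82 CPM.

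Markers of other liver cells fell from QS to KO by different amounts in the 3 lists. Of 26 hepatocyte markers 25 fell, and 24 of the 26 stood between 10 and 20% of their QS level, with a median of 15.2%. Alb, albumin, was 1115, 1135 and 1134 CPM in QS, 154, 161 and 156 CPM in KO and 11.2, 9.19 and 11.4 CPM in ACT. Hpx, haemopexin, stood below that band at 8.42% of QS. The member above it was Ass1, an enzyme of the urea cycle that many cell types express, which rose from 109, 98.9 and 112 CPM to 235, 248 and 218 CPM. In ACT the median of the list was 1.28% of QS, and 24 of the 26 were higher in KO than in ACT.

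Most macrophage markers were nearly lost. Of 24, 23 fell, 17 stood under 5% of QS, and the median was 2.43%. By contrast, 3 stood over 25% of QS, the highest at 64.0%. Adgre1, the F4/80 antigen, was 306, 336 and 322 CPM in QS, 3.61, 2.19 and 2.71 CPM in KO and 365, 358 and 367 CPM in ACT. Lyz2, lysozyme, was 499.6, 540.5 and 498 CPM in QS, 70.3, 68.7 and 72.1 CPM in KO and 9165, 9462 and 9423 CPM in ACT, so it fell in KO and rose in ACT. Cx3cr1 (-0.35, adjusted p = 0.0908) was not called, but was called lower without KO library 2 (-0.50, adjusted p = 0.023). In ACT the list's median was 113% of QS, and 21 of the 24 were lower in KO than in ACT. Hk3, described above, was likewise above QS in ACT (131 ± 4.82 CPM) and far below it in KO.

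Endothelial markers fell less and unevenly. Of 22, 18 fell and 3 rose, and the median was 49.2% of QS against 3.09% in ACT. Dnase1l3, a nuclease of sinusoidal endothelium, fell from 1706, 1742 and 1783 CPM to 60.4, 57.2 and 53.3 CPM, and Clec4g, a lectin of the same cells, from 729, 723 and 712 CPM to 109, 118 and 114 CPM. The general endothelial genes fell little, Pecam1 from 887, 894 and 889.7 CPM to 709.9, 727 and 704 CPM and Cdh5, the cadherin of endothelial junctions, from 2267, 2149 and 2152 CPM to 1434, 1386 and 1248 CPM. Emcn, endomucin, was 70.5, 79.0 and 75.3 CPM in QS and 229, 219 and 233 CPM in KO and thus rose, as did Robo4 (228 ± 5.42 to 342 ± 20.9 CPM) and Oit3 (0.13). The rise of Oit3 was lost with median ratios (0.07, adjusted p = 0.0956) and turned to -0.017 with quantile normalization. In ACT, Pecam1 was 31.1, 31.2 and 30.8 CPM and Cdh5 68.0, 77.0 and 67.6 CPM, and 21 of the 22 were higher in KO than in ACT. KO and ACT were kept in culture for the same 6 days and received different viruses. The labels do not tell whether they came from the same animals or cell preparation, so virus and preparation cannot be told apart here.

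Of 12 cholangiocyte and mesothelial markers 5 fell and 3 rose, at 161 to 173 CPM in sum in QS and 194 to 196 CPM in KO against 5234 to 5417 CPM in ACT. Such a sum is set mostly by its highest members. In ACT 7 of the 12 were higher than in QS and 3 lower, with a median log2 fold change of 1.68. The mesothelial factor Wt1 was 0.934 ± 0.635 CPM in QS, 0.896 ± 0.261 CPM in KO and 77.6, 82.8 and 79.0 CPM in ACT. Krt19, a keratin of bile duct cells, rose from 1.26 ± 0.385 to 23.2 ± 1.26 CPM. Of 6 markers of portal fibroblasts and smooth muscle, 4 rose and 1 fell, with a sum of 16.4 to 32.7 CPM in QS, 58.0 to 64.8 CPM in KO and 439.7 to 458 CPM in ACT, and Cnn1 and Myh11 of that list are also contractile genes. The part of these cells in the contractile and matrix values was not tested. Of 3 lymphocyte and neutrophil markers 2 fell, and so did both platelet markers, Itga2b and Pf4. The call of Pf4 (adjusted p = 0.0281) was lost without QS library 2, QS library 3 or KO library 1, and with libraries scaled to equal totals.

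**Figure D4:**
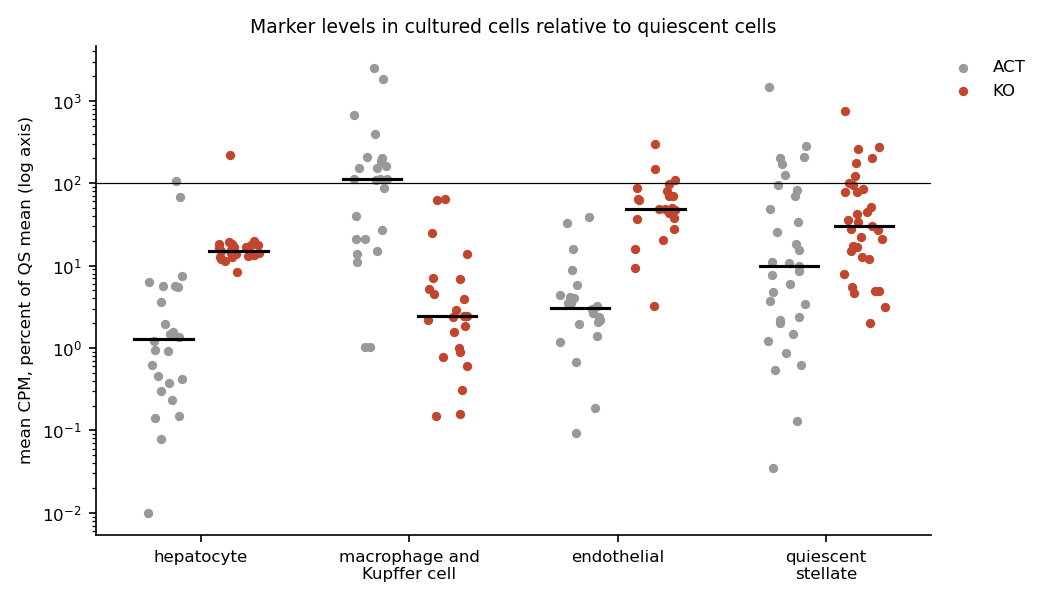
Mean CPM in ACT (grey) and KO (red) as a percent of the QS mean, on a log axis, for each gene of 3 marker lists and of the quiescent stellate list, with a bar at the median. The KO points of the hepatocyte list, except Ass1, crowd near 15.2% while those of the macrophage list have a median of 2.43%, and 1 hepatocyte gene listed at 0 in ACT, Apoa2, is drawn at 0.01%.

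Some genes lay outside the range of both QS and ACT in KO, by rank of the smaller of the 2 differences and without markers or predicted genes. Since that rule used both contrasts, their values are a description. The 10 genes farthest above were A2m, Psg22, Nefm, Nefl, Nppb, Wnt7a, Kcne4, Slc4a11, Bdkrb2 and Prrg4. A2m, the protease inhibitor alpha 2 macroglobulin, was 1.03, 0.960 and 0.209 CPM in QS, 1.20, 1.13 and 1.46 CPM in ACT and 74.6, 76.0 and 73.1 CPM in KO. Psg22, a pregnancy-specific glycoprotein from a family of close copies, was 1.14, 0.480 and 2.09 CPM in QS, 2.54, 2.43 and 2.33 CPM in ACT and 89.5, 88.2 and 87.0 CPM in KO. Nefm and Nefl, neighbouring genes of neurofilament subunits, had 35.3 ± 2.60 and 14.4 ± 1.38 CPM in KO, with every QS and ACT library at or under 1.30 CPM. Nppb, the natriuretic peptide BNP, was 9.40, 12.4 and 9.68 CPM in KO and under 1 CPM in every other of these libraries, and the secreted ligand Wnt7a 6.55, 6.10 and 6.55 CPM. Kcne4, a potassium channel subunit, was already measurable in QS (2.07, 2.40 and 2.51 CPM) and in ACT (5.52, 5.03 and 4.74 CPM) and reached 34.3, 35.1 and 37.7 CPM in KO, and Prrg4 was 0.519, 1.24 and 1.68 CPM in QS, 11.6, 10.3 and 11.0 CPM in ACT and 67.2, 61.6 and 60.5 CPM in KO.

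Among the genes farthest below both groups were Mpeg1, Ccl9, Nckap1l, Clec12a, Clec4e, Cybb, C3ar1, Cd180 and Rac2, which are known as genes of myeloid or other blood cells. Mpeg1, the macrophage perforin, was 1174, 1197 and 1209.6 CPM in QS, 1878, 1916 and 1902 CPM in ACT and 20.9, 22.2 and 22.4 CPM in KO. Cybb, the phagocyte NADPH oxidase, was 306, 318 and 321 CPM in QS, 941, 917 and 923 CPM in ACT and 6.60, 7.42 and 7.69 CPM in KO. Clec4e, a lectin receptor of macrophages, was 81.4, 74.3 and 72.9 CPM in QS and 43.5, 39.3 and 39.9 CPM in ACT, and 2 KO libraries listed it at 0. In each of these 9 genes the KO level was far below both QS and ACT, as in most of the macrophage markers that the rule had left out.

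**Figure D5:**
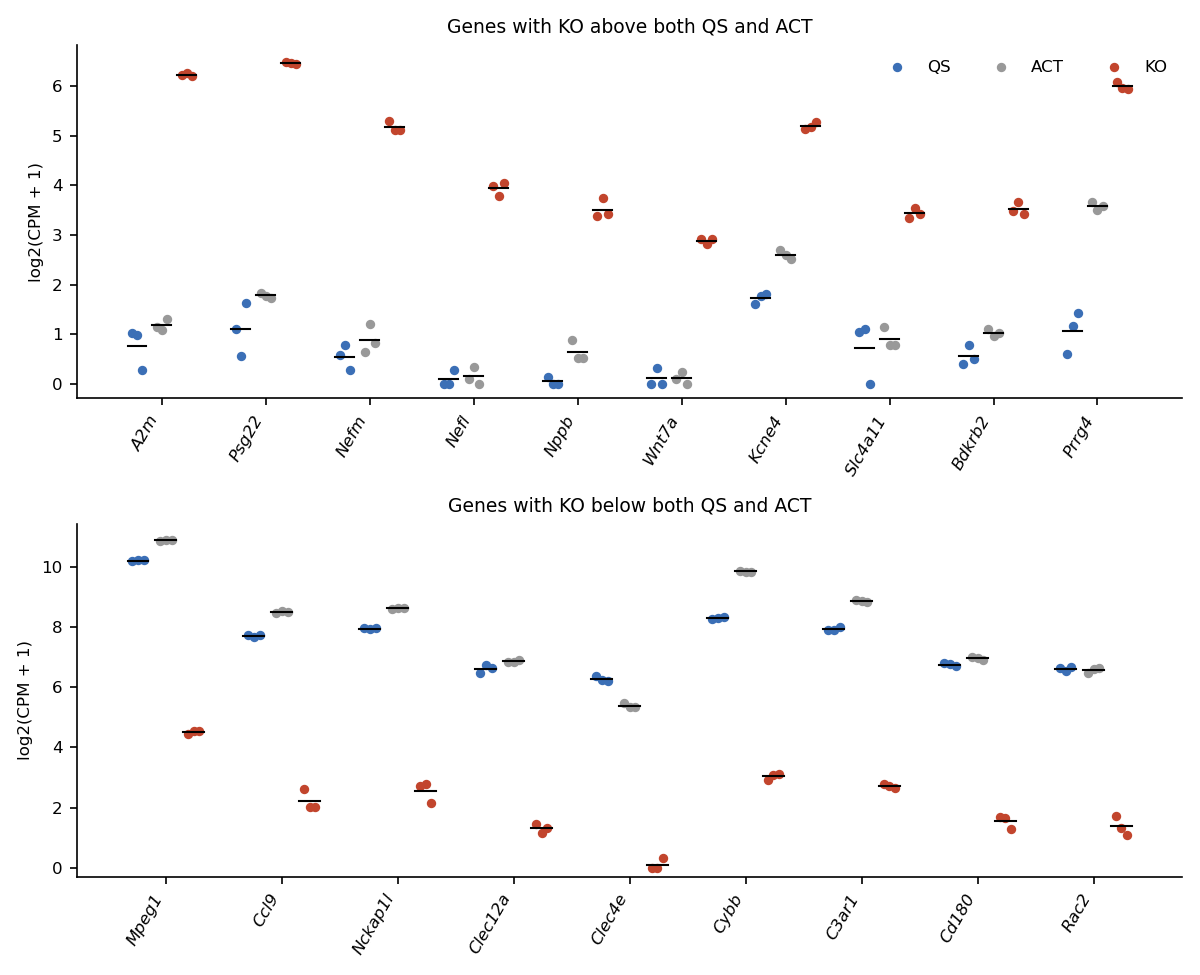
Level as log2(CPM + 1) in each library of QS (blue), ACT (grey) and KO (red) for the 10 genes farthest above both other groups (upper panel) and 9 of those farthest below (lower panel), with 3 points per group and a bar at their mean. A2m and Psg22 are below 2 in QS and ACT and above 6 in KO, and Mpeg1 and Cybb are above 8 in QS and ACT and under 5 in KO.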

How the data were processed

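Stranded poly(A) libraries of primary mouse stellate cells were sequenced, per the labels' protocols. The deposited table holds 1 value per gene and library. The authors' values are a signal, counts normalized to library size (CPM) with a further scaling factor, since the deposited columns do not share 1 total. The tools kallisto 0.44.0, cutadapt 1.18, edgeR 3.8 and FastQC 0.11.8 and the build mm10 are named in the list of tools per the submitters' processing notes, with no role stated. All 12081 listed genes have at least 1 CPM in at least 3 libraries. Only 19.1 to 25.7% of values lay within 0.01 of a whole read, so reads were not recovered and no count test was run. Depth was estimated from the value of 1 read, seen as a step in low values.

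Group means were fitted to log2(CPM + 1) of all 12 libraries with limma 3.58.1 in R 4.3.3, on 8 residual degrees of freedom, with variances moderated by eBayes (trend), and p-values were adjusted by Benjamini-Hochberg over all 12081 genes in each contrast. The script was tested on simulated data. Levels are means ± SD of 3 libraries. Between replicates, the chi-square per gene on approximate reads (CPM divided by the value of 1 read) was 2.33 to 4.57. Since these are not whole reads, it cannot tell whether replicates differed beyond the noise of sampling. Each library was kept as its own sample.

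The members and the 34 gene lists were chosen with earlier results of these data known. Lists are described by counts and medians without a set test. Genes were named as the 10 largest rises and falls (called, at least 5 CPM in the higher group, no overlap, no predicted gene), up to 4 called members per list, 20 genes fixed by name, and the 10 genes in each direction farthest outside both QS and ACT. A few genes that the rule names are not reported here. Vcl and Cnn2 were named by the promoter rule. Fn1, Dcn, Lox, Thbs1, Actg2, Emcn, Robo4, Pecam1, Cdh5, Eng, Pdgfb, Lif, Il11, Adgre1, Lyz2, Alb, Isg15, Hgf, Reln, Hmox1, Tgfbr1, Mdm2 and Sesn1, and the other list members named only with a fold change or beside a group (Apoa2, Ass1, Atf3, Atf4, Cenpa, Csf1, Cx3cl1, Cx3cr1, Cxcl14, Ddit3, Fmod, Lum, Oit3, Smtn and Wt1), were chosen after their values were seen. Coordinates are from GENCODE M21, in which 11887 symbols matched a single gene, and promoter windows from RefSeq. Values of genes with near-identical copies are uncertain, since reads can be split among the copies.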

Additional observations from a re-analysis of the deposited data

Results flagged for a closer look

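For 24 of the genes named in the text or by the naming rule, the change from QS to KO and the change from QS to ACT were both called and had opposite signs, and the direct contrast of KO with ACT passed the threshold too (limma, adjusted p from 1.30e-20 to 7.68e-08). The values below are that contrast on the log2(CPM + 1) scale, and they are given without an explanation. The genes were partly chosen for large differences between KO and ACT, so their number says nothing about all genes.

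Below QS in KO and above it in ACT was Hk2 itself, at -3.80. Myeloid genes were the largest set among the others. They were Lyz2 at -7.03, Cybb at -6.82, Mpeg1 at -6.38, Ccl9 at -6.29, C3ar1 at -6.15, Nckap1l at -6.09, Clec12a at -5.56, Hk3 at -5.25 and the platelet factor gene Pf4 at -3.09. The lysosomal genes Ctsb and Npc2 differed by -2.11 and -1.46. The mesothelial markers Upk3b and Gpm6a differed by -5.01 and -3.00. The remaining genes of this direction were the histone deacetylase gene Hdac9 at -3.05, the proteoglycan gene Fmod at -2.82, the receptor gene Tgfbr1 at -2.25, the p53 target Sesn1 at -1.93 and the stress factor gene Atf3 at -1.81.

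Above QS in KO and below it in ACT were the endothelial genes Robo4 at 5.07, Oit3 at 4.22, Eng at 3.17 and Emcn at 3.15, and the cytokine gene Il11 at 3.39.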

How the results depend on the processing

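The alternatives were other pseudocounts and filters, scaling to equal totals, quantile normalization, median ratios, a fit of the 2 groups alone, library weights, a stricter threshold, a replicate block and leaving out each library. Of the called genes named here only Oit3 changed direction, to -0.017 with quantile normalization. The balance of all called genes turned with median ratios (4229 higher, 4585 lower), and the sterol list turned from 7 higher and 8 lower to 10 and 7 with equal totals. Genes higher in KO than in QS numbered 3974 to 5128 over these settings and genes lower 3712 to 4585, and Hk2 stayed between -2.55 and -2.16. Genes at least 2-fold higher fell to 1130 with a pseudocount of 5, which by construction shrinks the changes of low genes. Leaving out each library gave 4289 to 4462 genes higher, 4101 to 4270 lower, 1692 to 1773 and 1598 to 1664 past 2-fold, and 4006 to 4445 higher and 2923 to 3259 lower in KO against ACT. Calls of single genes kept their side of the threshold in 4897 cases, were lost in 25 (Actg2, Pf4, Mfap5, Cenpa and Oit3) and gained in 4 (Slc16a3 and Cx3cr1), and the cause was not tested. Counts of lists changed by over 1.5 times in 41 of 1546 cases, nearly all from counts of 0 to 3, which include the falls in glycolysis (1, or 2 without QS library 2 or KO library 1). Deviations from the group means correlated at -0.042 to 0.086 between same-numbered libraries and at -0.077 to 0.053 between differently numbered ones. The labels do not say whether the numbers pair samples, and correlations this small cannot decide it. The replicate block gave 4519 genes higher and 4297 lower, with Hk2 at -2.46, and lost the call of Cenpa (adjusted p = 0.0547). At 3 reads or less, below 0.252 to 0.720 CPM, a level cannot be told from 0.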
